A study of Gallus gallus with 5 samples.

Results

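Planar cell polarity is the alignment of cells within the plane of a tissue, and the genes described here encode its membrane components and a set of WNT receptors related to it. The 10 genes were chosen by name, as VANGL1, VANGL2, CELSR1, CELSR2, PRICKLE1, PRICKLE2, ROR1, ROR2, RYK and PTK7, with no measured value in the rule. Earlier results of these data were known when they were chosen. All 10 were found among the 17108 genes of the expression table, each as 1 entry. Flight feather follicles of chicken wings were plucked so that they regenerated, and each library was made from the RNA of 5 pooled follicles. The wild type had 2 libraries, and there was 1 library each of Wnt5a overexpression, delivered with the lentiviral vector pLVX-Zsgreen, and of lnc7831 knockdown and lnc3500 knockdown, delivered with the lentiviral vector pLL3.7. An empty-vector library, the age and the breed are not given in the labels. A tag, T4, stands in the wild-type titles only and is not explained, so what it marks and treatment cannot be told apart.

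In planar polarity, the cadherins of the CELSR family (Flamingo in Drosophila) link neighbouring cells, the VANGL proteins (Van Gogh in Drosophila) and the PRICKLE proteins gather on one side of a cell, and Frizzled and Dishevelled proteins gather on the other. In mouse skin, Celsr1 and Vangl2 are known to orient hair follicles. ROR1, ROR2, RYK and PTK7 are single-pass membrane proteins of the receptor tyrosine kinase class that act in WNT signalling outside the beta-catenin route, and ROR2 and RYK are known as receptors for WNT5A, the ligand named in the overexpression label.

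Values were FPKM, fragments scaled to transcript length and library size, so levels can be compared between genes. The FPKM of most genes were higher in the treated libraries as deposited, with a median log2 shift of 0.54 for Wnt5a overexpression, 0.64 with lnc7831 knockdown and 0.56 with lnc3500 knockdown. For this reason differences are expressed against the median gene, on a log2 scale after median centring and a pseudocount of 1, while levels are FPKM as deposited. Tests covered the 11031 genes whose mean reached 1 FPKM, which included 9 of the 10 genes. Absolute depth is unknown from FPKM. Where both of a pair of libraries held a gene under 0.15 FPKM, the ratio of its values lay within 0.05 log2 units of the most common ratio for 32.0% of genes between the wild-type libraries and for 33.5% to 40.0% between treated libraries, but for 11.6% to 19.1% between a wild-type and a treated library. The small values thus scaled less evenly between wild type and treated libraries than within either kind, and the part of this in the differences below was not tested. WNT5A itself had 29.7 and 64.3 FPKM in wild type and 75.7 in the library labelled Wnt5a overexpression, a log2 difference of 0.19 (SE 0.59) after centring. It did not stand out there, so Wnt5a overexpression stands below for the library with that label. Neither knockdown was checked here. The source name is dermal papilla, the mesenchymal signalling centre of the follicle, but the libraries held epidermal RNA as well. All 14 dermal mesenchyme markers in the table were above 0 in every library, as were 19 of the 21 epidermal markers, while KRT5 and KRT75 were listed at 0 throughout. In such bulk RNA, fewer cells of a type and less RNA per cell cannot be told apart.

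Wild-type library 1 was the highest or lowest of the 5 libraries for 7 of the 9 genes, a count made after the values were seen, and for 58.7% of all tested genes. The same counts were 1 of 9 and 41.1% for wild-type library 2, 3 of 9 and 34.3% for Wnt5a overexpression, 6 of 9 and 36.6% for lnc7831 knockdown, and 1 of 9 and 28.5% for lnc3500 knockdown. Wild-type library 1 thus had the largest share over the whole table. In these genes its count was also the largest, but lnc7831 knockdown followed with 6 of 9.

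Among the receptors, PTK7 was the most abundant, and ROR2 the least. PTK7 (ENSGALG00000008609), a receptor with an inactive kinase domain that takes part in planar polarity, had 41.4 and 107 FPKM in wild-type libraries 1 and 2, 171 in Wnt5a overexpression, 221 with lnc7831 knockdown and 177 with lnc3500 knockdown. Wild-type library 1 was thus far below the other wild-type library, and the wild-type mean was 74.4 ± 46.6 FPKM (SD, n = 2). RYK (ENSGALG00000006488), which binds WNT through a WIF domain and also has an inactive kinase domain, had 24.9 FPKM in each wild-type library, 34.6 in Wnt5a overexpression, 34.0 with lnc7831 knockdown and 36.5 with lnc3500 knockdown. RYK was the steadiest of the 9 tested genes, with a range of 0.29 log2 units over the 5 libraries after centring, against 1.65 for PTK7. The median range of all tested genes was 0.70, and the range of PTK7 was larger than that of 90.3% of them, the range of RYK than that of 8.15%.

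ROR1 and ROR2 are paired receptors with a Frizzled-like cysteine-rich domain, and ROR1 was the more abundant of them in every library. ROR1 (ENSGALG00000011019) had 29.9 and 21.4 FPKM in wild type, 29.2 in Wnt5a overexpression, 35.7 with lnc7831 knockdown and 37.8 with lnc3500 knockdown. As deposited, the value of Wnt5a overexpression lay between the wild types and both knockdown libraries lay above them. ROR2 (ENSGALG00000015208) had 2.33 and 2.95 FPKM in wild type, 3.69 in Wnt5a overexpression, 6.45 with lnc7831 knockdown and 5.30 with lnc3500 knockdown. ROR2 was thus low throughout, in the lowest 15.2% to 24.1% of tested genes of each library.

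Of the core planar polarity genes, PRICKLE1, PRICKLE2 and VANGL2 were at moderate levels, VANGL1 lower and CELSR1 lowest of those detected. VANGL2 (ENSGALG00000024120), a multi-pass membrane protein, had 8.23 and 15.7 FPKM in wild type, 30.7 in Wnt5a overexpression, 37.0 with lnc7831 knockdown and 31.3 with lnc3500 knockdown. Its close relative VANGL1 (ENSGALG00000015025) had 6.52 and 5.76 FPKM in wild type, 11.6 in Wnt5a overexpression, 12.9 with lnc7831 knockdown and 11.4 with lnc3500 knockdown. Both VANGL genes had higher FPKM in each treated library than in either wild type as deposited, and their wild-type libraries stood in opposite order. By a looser measure, most tested genes were above the wild-type mean as deposited. These were 87.6% in Wnt5a overexpression, 93.1% with lnc7831 knockdown and 90.1% with lnc3500 knockdown. The share above both wild types as deposited was not counted.

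CELSR1 (ENSGALG00000013399), the polarity cadherin, had 1.59 and 3.24 FPKM in wild type, 6.42 in Wnt5a overexpression, 6.69 with lnc7831 knockdown and 5.68 with lnc3500 knockdown. CELSR2 (ENSGALG00000028616) was listed at 0 in all 5 libraries, a value that may also stand for a failed estimate, and it was not tested. CELSR3, the remaining member of that family, had a level of 0.320 to 1.502 FPKM, with a mean under the limit of 1 for testing.

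PRICKLE1 (ENSGALG00000009556), a cytoplasmic LIM-domain protein that binds VANGL, had 22.4 and 15.0 FPKM in wild type, 16.6 in Wnt5a overexpression, 31.6 with lnc7831 knockdown and 15.5 with lnc3500 knockdown. The lnc7831 knockdown library was the highest for PRICKLE1, and the other treated libraries lay between the wild types. PRICKLE2 (ENSGALG00000007332) had 9.24 and 14.2 FPKM in wild type, 14.2 in Wnt5a overexpression, 22.9 with lnc7831 knockdown and 15.0 with lnc3500 knockdown. After centring, the lnc7831 knockdown library was the highest of the 5 for 5 of the 9 genes, beside 18.7% of all tested genes. These were VANGL1, VANGL2, PRICKLE2, ROR2 and PTK7, a count made after the values were seen. For PRICKLE2 it led wild-type library 2 by only 0.0060 log2 units, close to a tie.

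**Figure D1:**
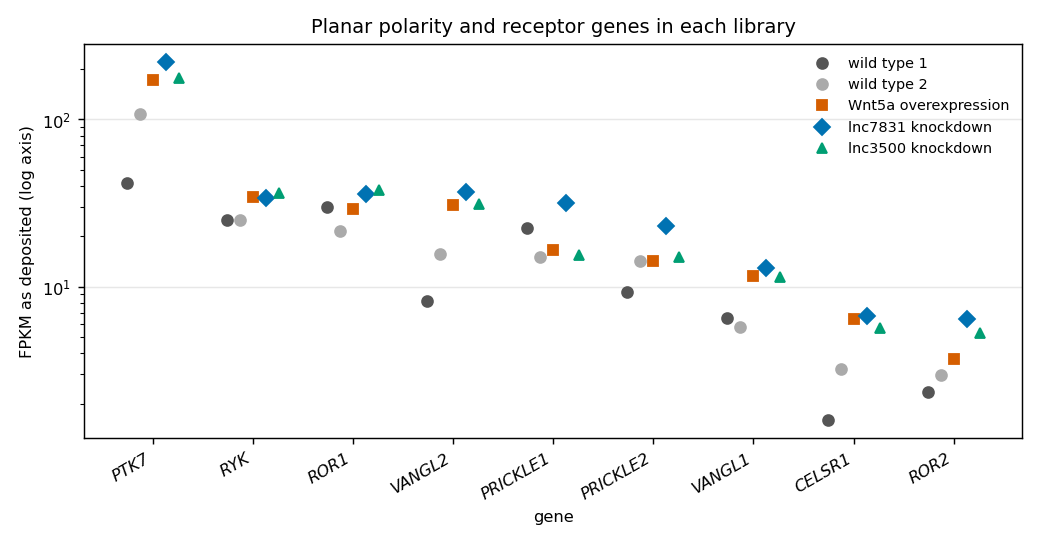
FPKM as deposited, on a log axis, of the 9 detected genes in each of the 5 libraries, 1 point per library with no error bar, ordered by the mean over the libraries; CELSR2 is listed at 0 and is not drawn. PTK7 is highest in every library, and its wild-type library 1, at 41.4 FPKM, stands well below the other 4.

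Ordered by the mean over the 5 libraries, PTK7 (144 FPKM) was followed by RYK (31.0), ROR1 (30.8), VANGL2 (24.6), PRICKLE1 (20.2), PRICKLE2 (15.1), VANGL1 (9.64), CELSR1 (4.72) and ROR2 (4.15). PTK7 was first and PRICKLE2 above VANGL1 in each library. By the wild-type mean, some neighbours overlapped between the wild-type libraries: ROR1 with RYK, PRICKLE1 with VANGL2, VANGL2 with PRICKLE2, and ROR2 with CELSR1. VANGL2 was the gene that moved furthest in this order, from sixth of the 9 in wild-type library 1 to second in lnc7831 knockdown.

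Ratios between genes within a library do not depend on how the libraries were scaled to each other, and they set wild-type library 1 apart. VANGL2 had 1.26 times the FPKM of VANGL1 in wild-type library 1, 2.72 times in wild-type library 2 and 2.65 to 2.87 times in the treated libraries. PRICKLE1 had 2.43 times the FPKM of PRICKLE2 in wild-type library 1 and 1.03 to 1.38 times in the other 4. In each of these pairs wild-type library 2 lay within the range of the treated libraries.

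ROR1 had 12.8 times the FPKM of ROR2 in wild-type library 1 and 5.53 to 7.92 times in the other 4. PTK7 had 1.66 times the FPKM of RYK in wild-type library 1 and 4.30 to 6.50 times in the other 4. PTK7 alone made up 28.3% of the summed FPKM of the 10 genes in wild-type library 1 and 51.0% to 54.1% in the others. Not every ratio moved in this way: VANGL2 had 4.77 to 5.53 times the FPKM of CELSR1 over all 5 libraries, with wild-type library 1 at 5.19. PTK7 had 5.03 times the FPKM of VANGL2 in wild-type library 1 and 5.58 to 6.85 times in the others. The pairs were picked with the values in view, so the ratios are a description with no test.

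**Figure D2:**
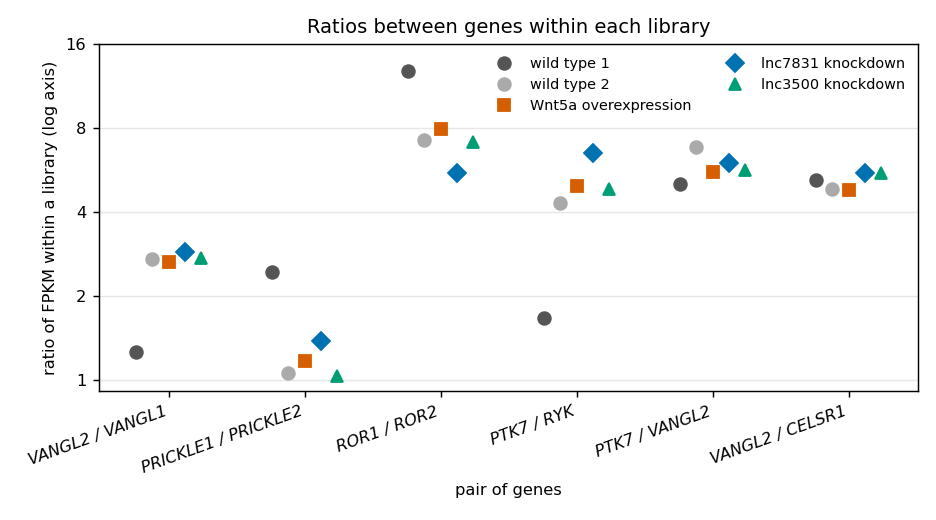
Ratios of FPKM between pairs of genes within a library, on a log axis, 1 point per library with no error bar. Wild-type library 1 stands apart from the other 4 for VANGL2 to VANGL1 (1.26), PRICKLE1 to PRICKLE2 (2.43), ROR1 to ROR2 (12.8) and PTK7 to RYK (1.66), and lies within their spread for VANGL2 to CELSR1 (5.19).

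PTK7, VANGL2 and CELSR1 shared a pattern over the libraries after centring, low in wild-type library 1, intermediate in wild-type library 2 and higher in the treated libraries. For PTK7, wild-type library 2 was 1.29 log2 units above library 1 but only 0.10 to 0.36 below the treated libraries. Likeness was measured as the root mean square distance of log2 values over the 5 libraries, each gene taken less its own mean. VANGL2 lay at 0.13 log2 units from CELSR1, with 0.372% of tested genes nearer to VANGL2, itself included. PTK7 lay at 0.16 from VANGL2, with 0.390% of tested genes nearer to PTK7, and at 0.23 from CELSR1, with 1.93% nearer. Counted from the other gene of each pair, the shares were larger. They were 0.789% for CELSR1 to VANGL2, 0.879% for VANGL2 to PTK7 and 7.10% for CELSR1 to PTK7. The grouping was made with the values in view. PRICKLE1 was the farthest from PTK7 of the 9 genes, at 0.92. Without wild-type library 1, an alternative chosen after seeing the data, 4.59% of tested genes were nearer to VANGL2 than CELSR1 was, and 9.53% nearer to PTK7 than VANGL2 was, both larger shares than with all 5 libraries. VANGL1 was then nearer to VANGL2 than CELSR1 was, at 0.044 against 0.10 log2 units, so the grouping of PTK7, VANGL2 and CELSR1 apart from VANGL1 rests on wild-type library 1.

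PRICKLE1, ROR1 and RYK were highest in wild-type library 1 after centring. For ROR1 the nearest of the other 8 genes was RYK, at 0.18, but 12.1% of tested genes were nearer to ROR1 than RYK was, itself included. Counted from RYK, 27.5% of tested genes were nearer than ROR1. VANGL1, PRICKLE2 and ROR2 varied less than PTK7, VANGL2, CELSR1 and PRICKLE1, with ranges of 0.43, 0.54 and 0.58 log2 units. Over the whole table, the genes nearest to PTK7 were IRS1, an adaptor of insulin signalling, at 0.03 log2 units, SNTB2, a syntrophin, at 0.05, ENSGALG00000007536 at 0.07, AGAP3 at 0.09 and ENSGALG00000026287 at 0.10. IRS1 had 0.948 and 3.58 FPKM in wild type, 5.97 in Wnt5a overexpression, 7.61 with lnc7831 knockdown and 6.39 with lnc3500 knockdown. ENSGALG00000026287 had 0.688 FPKM in wild-type library 1. At such low values the pseudocount of 1 shrinks differences, so the nearness of both genes to PTK7 depends on it.

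**Figure D3:**
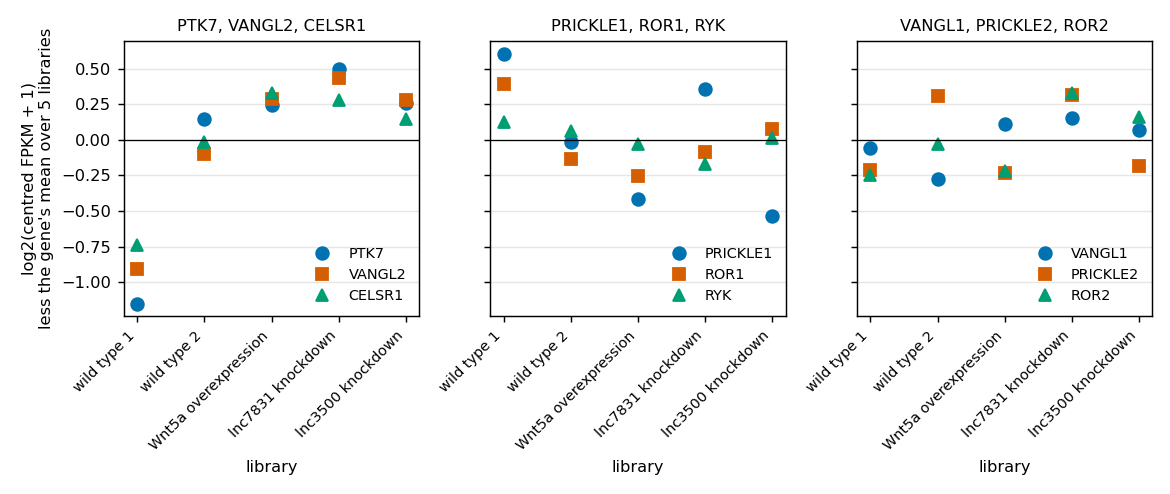
Log2 of centred FPKM plus 1, less the mean of the gene over the 5 libraries, in 3 panels of 3 genes, 1 point per library with no error bar. PTK7, VANGL2 and CELSR1 are lowest in wild-type library 1, PRICKLE1, ROR1 and RYK are highest there, and VANGL1, PRICKLE2 and ROR2 span 0.43 to 0.58 log2 units.

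The 3 treated groups were each compared with wild type to ask whether these genes differed from the untreated follicle. Relative to the median gene, VANGL2, CELSR1, PTK7 and VANGL1 lay above both wild-type libraries in each treated library, and RYK below both after centring but above both as deposited, but none of the 9 tested genes passed the test in any comparison. In Wnt5a overexpression 4 of the 9 genes lay above both wild types and 4 below both, beside 31.8% and 32.8% of tested genes. In lnc7831 knockdown 6 lay above and 1 below, beside 31% and 32.3%, and in lnc3500 knockdown 5 above and 2 below, beside 31.9% and 32.2%. The 3 comparisons share the wild-type libraries, so wild-type library 1 enters each of them. The share of all tested genes on the same side of both wild types in all 3 was not counted. The genes named above as such thus have no background. By the 2-fold rule, at least 1 log2 unit above both wild-type libraries or below both, 0 of the 9 genes counted in any of the 3 comparisons. Over all tested genes the rule took 3.92% in Wnt5a overexpression, 2.96% with lnc7831 knockdown and 3.07% with lnc3500 knockdown.

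VANGL2 had a relative log2 difference from wild type of 0.79 (SE 0.49) in Wnt5a overexpression, 0.94 (SE 0.49) with lnc7831 knockdown and 0.78 (SE 0.49) with lnc3500 knockdown. Against wild-type library 2 alone these were 0.38, 0.53 and 0.38, and against library 1 alone 1.19, 1.34 and 1.19. Between the wild types themselves PTK7 was the 1 of the 9 genes at least 2-fold apart, beside 12.1% of tested genes. For VANGL2 the wild types were 0.81 apart, about as much as the treated libraries differed from their mean. CELSR1 had differences of 0.70, 0.66 and 0.53 (SE 0.46 each) in the same order of libraries, beside 0.72 between the wild types. Against wild-type library 2 alone, CELSR1 differed by 0.34, 0.30 and 0.17.

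PTK7 had a difference of 0.75 (SE 0.69) in Wnt5a overexpression, 1.002 with lnc7831 knockdown and 0.76 with lnc3500 knockdown, each smaller than the 1.29 between the wild types. Against wild-type library 2 alone, PTK7 differed by 0.10, 0.36 and 0.12. The 95% interval of its difference in Wnt5a overexpression ran from -1.24 to 2.74, which takes in both a 2-fold lower and a 2-fold higher level. VANGL1 had smaller differences of 0.28, 0.32 and 0.23 (SE 0.32 each), which were larger than the wild-type difference of -0.21.

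PRICKLE1 was the gene of the set furthest below wild type, with a difference of -0.71 (SE 0.42) in Wnt5a overexpression and -0.83 (SE 0.42) in lnc3500 knockdown, both below each wild-type library after centring. Without centring these differences shrank to -0.14 and -0.23, and the values lay between the wild types. Against wild-type library 2 alone they were -0.40 and -0.52 after centring. In lnc7831 knockdown PRICKLE1 lay between the wild types, at 0.06. The wild-type difference of PRICKLE1 was -0.62. PRICKLE2 was at -0.28 in Wnt5a overexpression, 0.27 with lnc7831 knockdown and -0.23 with lnc3500 knockdown. Each was smaller in size than the 0.52 between the wild types. Only with lnc3500 knockdown did PRICKLE2 lie between the wild-type libraries after centring. Its negative values turned positive without centring.

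Among the WNT receptors with smaller differences, RYK was at -0.13, -0.26 and -0.08 (SE 0.34 each), below both wild types each time. The 95% interval for RYK in Wnt5a overexpression ran from -1.09 to 0.84. ROR1 was at -0.38, -0.21 and -0.06, and ROR2 at -0.08, 0.47 and 0.30. ROR2 lay above both wild types in each knockdown library and between them in Wnt5a overexpression. As deposited, without centring, RYK and ROR1 lay above the wild-type mean in all 3 treated libraries, so the direction of these low differences depends on the scaling. For ROR1 it also depended on wild-type library 1, without which the centred differences were -0.12, 0.049 and 0.21.

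**Figure D4:**
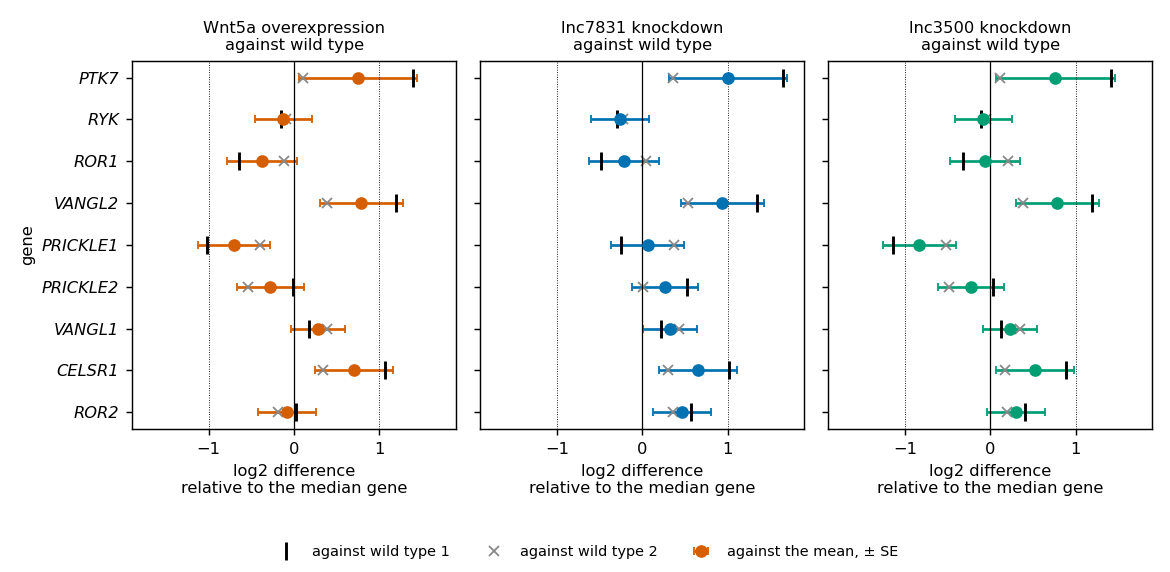
Log2 difference relative to the median gene of each treated library from wild type, for the 9 tested genes. Filled points show the difference from the mean of the 2 wild types with the standard error from limma, black bars the difference from wild-type library 1 and grey crosses that from library 2; dotted lines mark 1 log2 unit. PTK7, VANGL2 and CELSR1 lie further from wild-type library 1 than from library 2 in every panel.

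In limma's test over all genes with Benjamini-Hochberg adjustment, the adjusted p was 1 for each of the 9 genes in each of the 3 comparisons, and the smallest unadjusted limma p was 0.127, for PRICKLE1 in lnc3500 knockdown. Over the whole table limma called 1 gene in Wnt5a overexpression (0.00907% of those tested), 4 with lnc7831 knockdown (0.0363%) and 0 with lnc3500 knockdown, and took 442, 335 and 340 genes at an unadjusted p below 0.05. The labels call the wild-type libraries repeats without naming separate birds, so these p-values measure only the spread between those samples, which may be technical, and assume that a single treated library varies as they do. Against wild-type library 1 alone, 4 of the 9 genes differed at least 2-fold in Wnt5a overexpression (13.6% of tested genes), 3 with lnc7831 knockdown (12.3%) and 3 with lnc3500 knockdown (13.5%). They were VANGL2 and PTK7 in each, CELSR1 in Wnt5a overexpression and lnc7831 knockdown, and PRICKLE1, lower, in Wnt5a overexpression and lnc3500 knockdown. Against wild-type library 2 alone, 0 of the 9 genes did, beside 8.36%, 7.5% and 7.23% of tested genes.

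The treated libraries were also compared with each other, library against library. No gene of the set differed at least 2-fold between any pair of treated libraries, against 6.14% of tested genes between lnc7831 knockdown and Wnt5a overexpression, 1.74% between lnc3500 knockdown and Wnt5a overexpression and 5.98% between the knockdowns. PRICKLE1 had the widest gaps of the set from lnc7831 knockdown, 0.77 (SE 0.49) higher in lnc7831 knockdown than in Wnt5a overexpression and 0.89 (SE 0.49) higher than in lnc3500 knockdown. These gaps were larger than those of 89.1% and 92.4% of tested genes. PRICKLE2 was 0.54 and 0.50 higher in lnc7831 knockdown in the same comparisons, and ROR2 0.55 and 0.17 higher. Between lnc3500 knockdown and Wnt5a overexpression the widest gap was that of ROR2, 0.38 higher in lnc3500 knockdown, and VANGL2 differed by -0.0033. The limma adjusted p was 1 for all 9 genes in these 3 comparisons too. Of tested genes limma called 0.0453% between lnc7831 knockdown and Wnt5a overexpression, 0% between lnc3500 knockdown and Wnt5a overexpression and 0.0272% between the knockdowns.

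Further genes of the pathway were taken from fixed lists, also chosen with earlier results of these data known. Of the 5 non-canonical WNT ligands listed, which include the ligands of the ROR and RYK receptors, 4 were tested and WNT9B was listed at 0 in every library. WNT11 was the 1 pathway gene in these lists that passed the 2-fold rule, higher in lnc7831 knockdown and lower in lnc3500 knockdown. It had 39.5 and 47.6 FPKM in wild type, 69.3 in Wnt5a overexpression, 225 with lnc7831 knockdown and 26.9 with lnc3500 knockdown, a relative log2 difference of 1.64 and -1.29 (SE 0.37 each) in the knockdowns. WNT5A had 162 FPKM with lnc7831 knockdown and 43.8 with lnc3500 knockdown.

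Of 16 other planar polarity genes in the table, among them Frizzled, Dishevelled, SCRIB and DACT genes, 14 were tested. Of these 9 lay above the wild-type mean in Wnt5a overexpression, 12 with lnc7831 knockdown and 9 with lnc3500 knockdown, with median relative differences of 0.10, 0.17 and 0.20. Over all 11031 tested genes, 5530, 5556 and 5480 lay above the wild-type mean, with medians of 0.00 in each. Of the 5 tested Fat and Dachsous cadherins, which form a separate polarity system, 3, 4 and 5 lay above it, with medians of 0.24, 0.22 and 0.39. Between the wild types, 3 of these 5 were higher in library 2 and 2 were lower. The median there was 0.55, larger than each of the medians against wild type, and 1 gene was at least 2-fold higher.

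Of the 3 tested genes of ciliary polarity effectors, 2, 2 and 1 lay above the wild-type mean. Of 13 tested cytoskeletal effectors, such as DAAM1 and ROCK1, 6, 6 and 10 did, with medians of -0.06, -0.02 and 0.10. Of 9 tested beta-catenin targets and feedback genes, 4, 7 and 4 did, with medians of 0.00, 0.26 and -0.01. In these lists other than the ligands, 0 genes passed the 2-fold rule against wild type, and limma called 0 after adjustment over all genes and 0 at an unadjusted p below 0.05. Of the ligands, limma called 0 after adjustment, and 1 in each knockdown had an unadjusted p below 0.05.

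Markers of cell types also differed between the libraries, not all in the same direction. GRHL3 stood among the epidermal markers as well as the planar polarity genes. The summed centred FPKM of the 21 epidermal markers in the table was 2895 and 4388 in wild type, 8330 in Wnt5a overexpression, 6367 with lnc7831 knockdown and 6915 with lnc3500 knockdown. KRT14, a basal keratin, made up much of it, with 827 and 2222 in wild type and 3681, 3490 and 3204 in the treated libraries in that order. Without KRT14, a sum added after seeing the data, the other 20 markers summed to 2068 and 2166 in wild type and to 4649, 2876 and 3712. The sums were thus higher in the treated libraries with and without KRT14, while the gap between the wild types was mostly that of KRT14. Of 19 tested epidermal markers, 9 were higher in wild-type library 2 than in library 1 and 10 lower, with a median of -0.05. By size, 5 of them were at least 2-fold higher in library 2, the order of VANGL2, CELSR1 and PTK7, and 2 at least 2-fold lower. Over all tested genes these shares were 8.42% and 3.64%. In the treated libraries, 10, 2 and 5 of the 19 passed the 2-fold rule upwards, beside 2.18%, 1.64% and 1.43% of all tested genes. The 14 dermal mesenchyme markers summed to 4095 and 4028 in wild type and to 4484, 6617 and 5432 in the treated libraries, highest in lnc7831 knockdown. COL1A2 and COL3A1 weighed heavily in that highest sum, and a sum without them was not taken. As deposited, they had 3996 and 1421 FPKM in lnc7831 knockdown. In wild type COL1A2 had 1213 and 1003 FPKM as deposited, and COL3A1 379 and 280. The sums are of centred FPKM, so these values cannot be read as shares of them. Of the 14 markers, 8, 13 and 8 lay above the wild-type mean in the treated libraries after centring. The 12 leukocyte markers summed to 207 and 225 in wild type and to 113, 144 and 87.5 in the treated libraries, with none of them at 0. Not all of them were lower: 10, 9 and 11 lay below the wild-type mean, and 2, 3 and 1 above it. Over the 5 libraries, endothelial markers summed to 137 to 191, smooth muscle markers to 1532 to 2983, melanocyte markers to 30.2 to 50.1, glial and neuronal markers to 19.95 to 51.3, and red blood cell markers to 13.5 to 46.0 centred FPKM. The part of these markers in the differences of the planar polarity and receptor genes was not tested.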

How the data were processed

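The authors deposited 1 table of FPKM per gene with 1 column for each of the 5 libraries. Per the submitters' processing notes, the tools were Cufflinks 2.2.1 and TopHat2 2.1.0 and the genome build was galGal4. Scaling between libraries, strand and the handling of multiply mapped reads are not given in the sources used here. Genes were matched by the names in the table, and no coordinates or sequences were used.

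For centring, FPKM were divided by a factor per library, the median over genes of the ratio to the geometric mean, which was 0.751 and 0.784 for wild type, 1.16 for Wnt5a overexpression, 1.26 with lnc7831 knockdown and 1.19 with lnc3500 knockdown, over tested genes above 0 in all 5. Log2 values used a pseudocount of 1, which understates the change of low genes, and a minimum mean of 1 FPKM. Testing used limma (version 3.58.1, under R 4.3.3) with a trend of variance on mean, two-sided, all 5 libraries in 1 fit with 1 residual degree of freedom and 2.70 prior degrees of freedom, Benjamini-Hochberg adjustment over all tested genes and a threshold of 0.05. This step was also run on simulated data, where the only requirement was that the mean size of the added changes was recovered. That run does not measure how reliable the calls are in these data. The 2-fold rule has no test.

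The genes and the lists were chosen with earlier results of these data known. All 10 genes are named with their values. From the further pathway lists, genes past the 2-fold rule are named. CELSR3, WNT9B, KRT14, KRT5, KRT75, COL1A2 and COL3A1 were named after their values were seen. Alternatives were no centring, upper-quartile centring, a pseudocount of 0.1, no filter, limma without a trend, and leaving out each wild-type library.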

Additional observations from a re-analysis of the deposited data

How the results depend on the processing

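No paired analysis was possible because each treated group has 1 library. Depth is unknown, so no counting limit is given. Of the 9 tested genes, 0 were called by limma in any of the 6 comparisons under any of the alternatives that allow a test. Without centring, 2 genes, VANGL2 and PTK7, passed the 2-fold rule in lnc7831 knockdown against wild type. The share of all tested genes past the rule in that setting was not counted, so this count has no background. In that setting 93.06% of tested genes were higher with lnc7831 knockdown than the wild-type mean. When each wild-type library was left out in turn, the count of the 9 genes at least 2-fold apart ran from 0 to 4 in Wnt5a overexpression, 0 to 3 in lnc7831 knockdown and 0 to 3 in lnc3500 knockdown.

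Without centring, the following log2 differences changed sign against wild type: in Wnt5a overexpression PRICKLE2 (0.28), ROR1 (0.20), ROR2 (0.37) and RYK (0.46), in lnc7831 knockdown ROR1 (0.48) and RYK (0.43), and in lnc3500 knockdown PRICKLE2 (0.36), ROR1 (0.56) and RYK (0.53). CELSR1 in lnc7831 knockdown against Wnt5a overexpression became 0.051 without centring and 0.0083 with upper-quartile centring, and VANGL2 in lnc3500 knockdown against Wnt5a overexpression 0.031 and 0.017. Leaving out wild-type library 1 turned the sign of ROR1 in lnc7831 knockdown (0.049) and lnc3500 knockdown (0.21), and leaving out library 2 that of PRICKLE1 in lnc7831 knockdown (-0.25), PRICKLE2 in lnc3500 knockdown (0.031) and ROR2 in Wnt5a overexpression (0.025).

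The counts of genes called over the whole table moved with the settings, and the cause was not tested. Without the filter on low values they were 183 in Wnt5a overexpression, 260 with lnc7831 knockdown and 129 with lnc3500 knockdown against wild type, 335 with lnc7831 knockdown and 234 with lnc3500 knockdown against Wnt5a overexpression, and 285 between the knockdowns. A pseudocount of 0.1 gave 0 in Wnt5a overexpression and 0 in lnc7831 knockdown against wild type, and 0 in lnc7831 knockdown against each other treated library. Upper-quartile centring gave 8 with lnc7831 knockdown and 2 with lnc3500 knockdown against wild type, and 2 in lnc3500 knockdown against Wnt5a overexpression. No centring gave 0 in Wnt5a overexpression against wild type. Without a trend limma called 1 in lnc3500 knockdown against Wnt5a overexpression and 1 between the knockdowns.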
